A study of Mus musculus with 6 samples.

Results

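The comparison of TGFβ1 for 2 h against vehicle was examined in NMuMG cells, an immortal epithelial line from normal mouse mammary gland, as the change of RNA level of every expressed gene. Stranded total RNA-seq of 4 libraries entered the comparison, 2 biological replicates of cells given 5 ng/ml TGFβ1 for 2 h and 2 of cells given vehicle, out of 6 libraries that also include TGFβ1 for 12 h. All cells were first held in medium without serum or insulin for 6 h, so that vehicle and 2 h cells spent the same time without serum, whereas the 12 h cells spent longer. The cells are described as unmodified, and no allele or transgene is named for any group. The vehicle is given as dilute hydrochloric acid with BSA in the treatment description and as Tris-HCl with BSA in the sample labels. Genes with at least 2 CPM (counts scaled to a library of 1e+06) in at least 2 of the 6 libraries were kept, which left 11080 of 21240 genes. The design answers which genes respond early to TGFβ in epithelial cells, with a control matched in time.

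TGFβ is a secreted cytokine that binds type II and type I serine/threonine kinase receptors. The type I receptor phosphorylates SMAD2 and SMAD3, which join SMAD4, enter the nucleus and act on target genes together with other factors, AP-1 among them. Early targets include inhibitors of the same pathway, such as Smad7, Ski and Skil, which form a negative feedback loop. In NMuMG cells prolonged TGFβ is known to provoke an epithelial-mesenchymal transition (EMT), in which junctions are lost and actin stress fibres and matrix are gained.

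The 4 libraries held between 14705886 and 20578661 counts, and the 2 h libraries were deeper than the vehicle libraries. Malat1, a long nuclear RNA, took from 2.64 to 5.22% of the counts in these 4 libraries. Replicates differed by a median absolute log2 difference of 0.15 in the vehicle group and 0.22 in the 2 h group. Epithelial keratin and cadherin RNAs were abundant, with 30095 to 49168 counts of Krt18 and 5697 to 12026 counts of Cdh1 per library. Other defining markers of mammary epithelium were near or at 0: Epcam had 2 to 4 counts, Trp63 and Elf5 had at most 2, and the milk protein genes Csn2, Csn3 and Wap had 0 in all 4 libraries. Some markers of other cell types were also near 0. Ptprc (leukocytes) had at most 4 counts, Pecam1 (endothelium) and Adipoq (adipocytes) at most 1, and Thy1 (fibroblasts) 0. Fibroblast markers Col1a2, Col3a1 and Dcn had 11, 10 and 10 counts in vehicle replicate 1 and 0, 1 and 1 in replicate 2. Their counts in TGFβ1 replicate 1 were 19, 6 and 11 and in TGFβ1 replicate 2 were 4, 0 and 2. Summed adipocyte markers were at 11.9 and 7.39 CPM in vehicle and 13.6 and 12.4 CPM with TGFβ1, nearly all of it Pparg. Summed endothelial markers were at 121 and 131 CPM in vehicle and 173 and 167 CPM with TGFβ1, nearly all of it Flt1, which rose by 0.43 on the log2 scale and lost its call whichever of the 4 libraries was left out, with Emcn and Cldn5 at 0. Summed leukocyte markers were at 157 and 162 CPM and 181 and 171 CPM, nearly all of it Cd14. The part of such cells in the results was not tested. In bulk RNA, fewer cells of a type and less RNA per cell cannot be told apart.

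At 2 h, 1680 genes had an adjusted p below 0.05 (edgeR quasi-likelihood test with Benjamini-Hochberg adjustment), which was 15.2% of the genes tested. Of these, 1098 were higher with TGFβ1 (9.91% of those tested) and 582 were lower (5.25%). A change beyond 1 log2 unit in addition was found for 692 genes (6.25%), 469 higher (4.23%) and 223 lower (2.01%), and these are termed robustly changed. Large folds were found mainly among the higher genes: 63 rose over 8-fold and 8 fell over 8-fold. These folds are fitted values. Of the genes called higher, 19 had at most 3 counts in each vehicle library, where the fitted value depends on the prior count. No gene called lower was at this floor at 2 h. Together the higher genes held 8.58% of the normalized counts in the vehicle group and 16.6% in the 2 h group, and the lower genes 3.58% and 2.06%. For all 1680 genes the values of the groups did not overlap, as was the case for 55.8% of the genes tested.

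**Figure D1:**
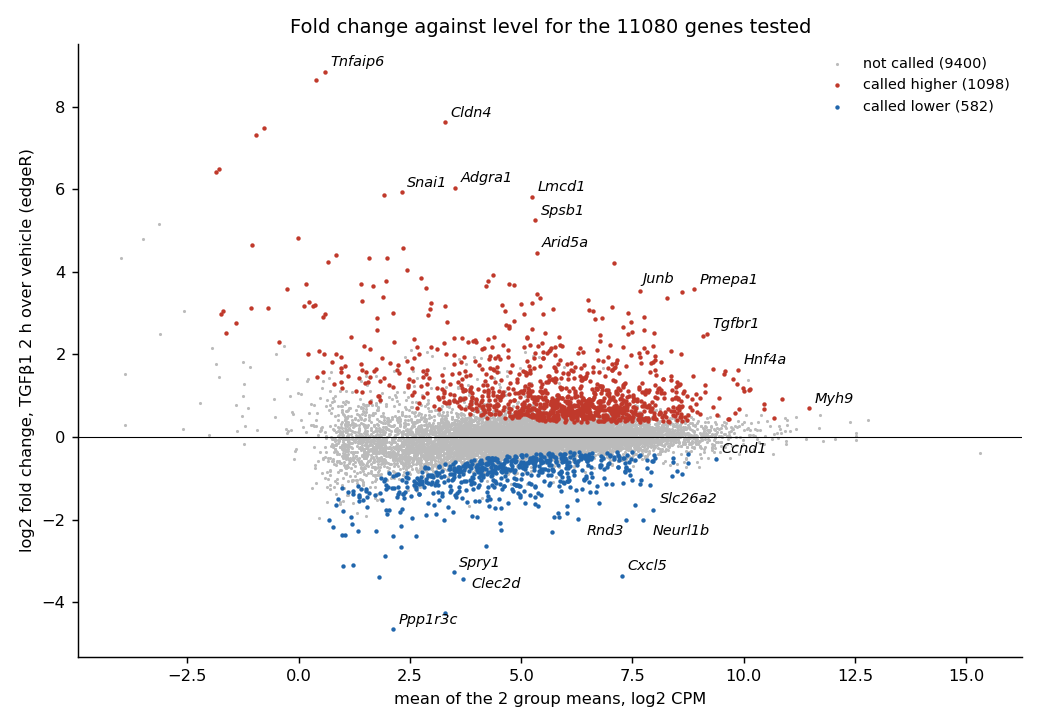
Each point is 1 of the 11080 genes tested. The x axis gives the mean of the vehicle and 2 h levels in log2 CPM and the y axis the log2 fold change fitted by edgeR, with called genes in red (1098 higher) and blue (582 lower), and labels on some of the genes named in the text. The highest fold changes lie above 5 and belong to genes of low or middle level, and the lowest lie near -4.65. For genes with at most 3 counts per vehicle library the fitted value depends on the prior count and is not a measured fold.

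The split between higher and lower genes depended on the scaling and on single libraries. With TMM scaling 1098 genes were higher and 582 lower, whereas scaling to total counts moved the median log2 fold change by -0.11 and gave 854 higher and 975 lower genes, so that higher genes made up 46.7% of the calls. Among robustly changed genes the higher share was 57% under that scaling, with 401 higher and 303 lower, against 469 and 223 with TMM scaling. Without vehicle replicate 1 only 499 genes were called higher and 138 lower, and without vehicle replicate 2 547 and 174. Without TGFβ1 replicate 1 the lower genes numbered 950 and without TGFβ1 replicate 2 379. The robustly higher genes ranged from 379 to 535 over these 4 omissions and the robustly lower genes from 113, without vehicle replicate 1, to 374, without TGFβ1 replicate 1, with 129 without vehicle replicate 2. No called gene took the opposite sign in any of these fits. A call described as lost without either vehicle library was lost both when replicate 1 alone and when replicate 2 alone was left out. Counts of list members in these fits are to be read beside the totals above, which differ from those of the main fit.

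The highest fold changes among robustly changed genes included RNAs that were nearly undetected in vehicle. For genes with at most 3 counts in each vehicle library, and not at 0 in both, the ratio of summed counts, each divided by the summed TMM-normalized library sizes of its group, is given with its exact 95% interval, which covers counting error only. Cldn4, a claudin of tight junctions, was counted 2 and 1 times in vehicle and 484 and 286 times with TGFβ1, a ratio of 212-fold (72.2 to 1030.0) (edgeR adjusted p = 0.000502). Snai1, a zinc finger repressor that acts in EMT, was counted 2 and 3 times in vehicle and 181 and 206 times with TGFβ1, a ratio of 63.9-fold (27.1 to 198), with an edgeR adjusted p of 0.000212. Both genes were therefore near the detection limit without TGFβ1 and were clearly read with it. Efna3, an ephrin ligand, had a ratio of 61.1-fold (23.6 to 226), Odf3l1 31.4-fold (8.39 to 264), and Arc, an immediate-early gene of neurons, 30.6-fold (5.15 to 1239).

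Other genes were at 0 in both vehicle libraries, and their fold is a lower bound against a floor of 3 counts per library. Tnfaip6, a hyaluronan-binding protein, had 70 and 49 counts with TGFβ1 and was at least 16.4-fold higher (edgeR adjusted p = 0.00398). The dual-specificity phosphatase gene Dusp2 was at least 14.1-fold higher, the engulfment receptor gene Megf10 at least 6.31-fold and the semaphorin gene Sema4f at least 5.63-fold. Megf10 lost its call without either vehicle library (edgeR adjusted p up to 0.097) and Arc without vehicle replicate 1 (edgeR adjusted p = 0.0564).

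The other genes of the highest fold changes had reads in every library. Lmcd1, a LIM domain protein, stood at 1.24 and 1.40 CPM in vehicle and 85.5 and 64.1 CPM with TGFβ1, a log2 fold change of 5.82 ± 0.23 (SE). Spsb1, a SOCS box protein, went from 2.18 and 1.85 to 87.2 and 67.8 CPM, with a log2 fold change of 5.26 ± 0.20. Adgra1, an adhesion G protein-coupled receptor, went from 0.471 and 0.191 to 16.6 and 28.4 CPM. The TGFβ1 libraries lay far above the vehicle libraries for all 3 genes, and the edgeR adjusted p was 0.000109, 0.000109 and 0.000502, respectively.

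The strongest falls were of smaller size. Ppp1r3c, which targets protein phosphatase 1 to glycogen, fell from 6.18 and 10.6 CPM to 0.506 and 0.151 CPM (log2 fold change -4.65 ± 0.56, edgeR adjusted p = 0.00321). Clec2d, a C-type lectin, fell from 23.7 and 23.4 to 1.47 and 2.83 CPM, and 8430408G22Rik from 26.7 and 10.5 to 1.11 and 0.807 CPM. Spry1, an inhibitor of receptor tyrosine kinase signalling, fell from 23.03 and 17.5 to 1.72 and 2.47 CPM, a log2 fold change of -3.27 ± 0.29. In each of these genes both TGFβ1 libraries were below both vehicle libraries. Stc1, a secreted glycoprotein (log2 fold change -3.11), Trim71 (-2.89), Rasgef1a (-2.67) and the interferon-induced Ifit3b (-3.14, whose reads are uncertain beside its near copy Ifit3) also fell from levels below 10 CPM, and so did the sialyltransferase gene St8sia4 (-2.41), which lost its call without either vehicle library (edgeR adjusted p up to 0.143).

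Measured by the gain in CPM, which is not corrected for gene length, the largest gains among called genes included genes of several functions. Myh9, the heavy chain of non-muscle myosin IIA, rose from 2133 and 2215 to 3338 and 3701 CPM and Plec, the cytolinker plectin, from 1226 and 1350.3 to 2252 and 2622 CPM. Iqgap1, a scaffold of Rac1 and Cdc42, rose from 662 and 728 to 1483 and 1587 CPM, Lmna, encoding lamin A/C, from 612 and 780.5 to 1298 and 1799 CPM, and the calcium-activated chloride channel gene Ano1 from 709 and 514 to 1421 and 1386 CPM. Hnf4a, a nuclear receptor best known from liver and gut epithelium, rose from 492 and 425 to 1518 and 1317 CPM (log2 fold change 1.63 ± 0.14, edgeR adjusted p = 0.00102). Lamb3, a chain of laminin-332, and Fam129b followed with log2 fold changes of 1.59 ± 0.16 and 1.40 ± 0.10. Myh9 and Lmna lost their calls without vehicle replicate 1, with edgeR adjusted p of 0.062 and 0.065.

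The largest losses in CPM among called genes included a sulfate transporter and a ubiquitin ligase. Slc26a2, the transporter, fell from 436 and 334 to 127 and 99.4 CPM (log2 fold change -1.77 ± 0.17) and Neurl1b, a ubiquitin ligase of Notch ligands, from 320.1 and 368 to 74.6 and 94.9 CPM (-2.02 ± 0.22). Rnd3, an atypical small GTPase that opposes actomyosin contraction, fell from 287 and 242 to 72.1 and 58.3 CPM (edgeR adjusted p = 0.000541). Ccnd1, encoding cyclin D1, stood at 825 and 753 CPM in vehicle and 613 and 482 CPM with TGFβ1, with an edgeR adjusted p of 0.0499 just under the threshold. Oxr1, Crot and Ndrg1 fell by 0.95 ± 0.20, 0.81 ± 0.19 and 0.62 ± 0.11 on the log2 scale. Ccnd1, Oxr1, Crot and Ndrg1 each lost the call without either vehicle library, with edgeR adjusted p up to 0.225, 0.134, 0.161 and 0.1, and Ccnd1 also without TGFβ1 replicate 2.

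Genes were next sorted into 26 functional lists. The lists with the highest shares of higher genes were AP-1 factors, where 8 of 13 tested members rose (61.5%), EMT transcription factors with 5 of 10 (50%), TGFβ signalling with 19 of 41 (46.3%) and YAP and TEAD targets with 9 of 20 (45%), against 9.91% of all genes tested. Lists with the highest shares of lower genes were negative feedback on MAP kinases with 6 of 25 (24%), the circadian clock with 4 of 20 (20%) and cytokines with 7 of 37 (18.9%), against 5.25%. No member of the DNA replication and mitosis list (57 tested) or of the respiratory chain list (53 tested) was called by edgeR. Some calls in both lists arose when a TGFβ1 library was left out. The medians given for the lists use fitted values, and with low-count genes set at their bound only that of matrix genes moved, from 0.48 to 0.47.

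**Figure D2:**
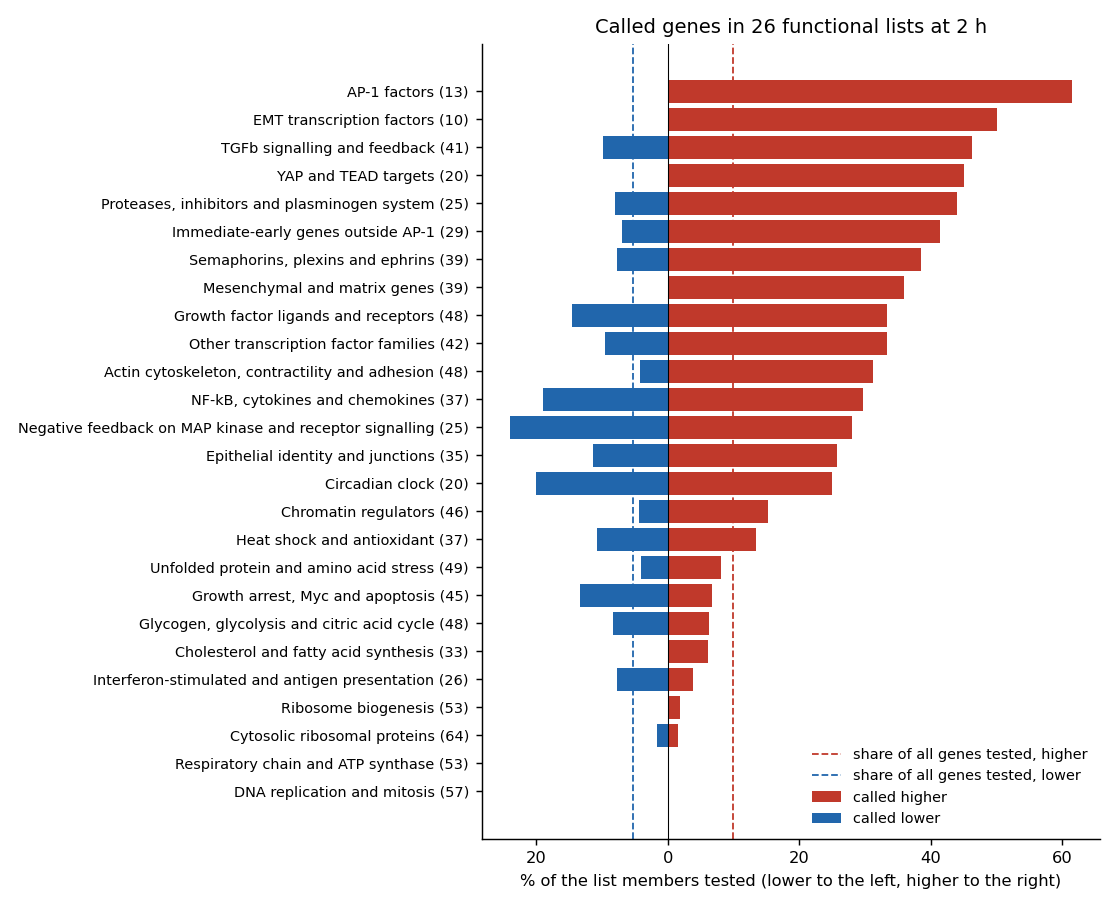
Bars give the percentage of tested members of each of 26 lists called higher (red, to the right) or lower (blue, to the left) at 2 h, with the number tested in parentheses. Dashed lines mark the shares among all 11080 genes, 9.91% higher and 5.25% lower, and 17 lists from AP-1 factors to heat shock genes extend beyond the red line.

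Components and inhibitors of the TGFβ pathway changed in both directions, with a median log2 fold change of 0.31 against -0.01 over all genes. Of 41 tested genes 19 were higher (46.3%, against 9.91% of all genes tested) and 4 lower (9.76%, against 5.25%). Among inhibitors of the pathway, Pmepa1 rose from 84.04 and 61.96 to 1049.8 and 703 CPM and Ski from 51.9 and 49.8 to 398 and 363 CPM, with log2 fold changes of 3.59 ± 0.25 and 2.90 ± 0.11 (edgeR adjusted p = 0.000502 and 0.000109). Skil went from 137 and 116 to 659 and 418 CPM (2.09 ± 0.24), and Smad7, which blocks the type I receptor, from 38.9 and 25.9 to 169 and 103 CPM (2.07 ± 0.28). The groups did not overlap for any of these 4 genes, and replicate 1 was the higher of both TGFβ1 replicates in each. The inhibitors Ldlrad4 (2.71), Smad6 (1.08), Smurf1 (1.12), Smurf2 (0.73) and Tgif1 (1.13) also rose on the log2 scale.

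Among receptors and ligands, Tgfbr1, the type I receptor, increased from 204 and 140.3 to 1289 and 662 CPM, a log2 fold change of 2.50 ± 0.36 (edgeR adjusted p = 0.00608). The related type I receptor Acvr1 rose from 31.2 and 22.7 to 215 and 181 CPM (2.87 ± 0.19), and the BMP type II receptor Bmpr2 by 1.19. Tgfb1, the ligand itself, rose by 1.18, the signal transducer Smad3 by 0.96, the activin antagonist Fst by 1.20, and the latent TGFβ binding proteins Ltbp3 and Ltbp1 by 1.21 and 0.47 on the log2 scale. Ltbp2 had 1 and 1 counts in vehicle and 15 and 7 with TGFβ1, a ratio of 9.08-fold (2.23 to 79.7), a call that was lost without vehicle replicate 1, vehicle replicate 2 or TGFβ1 replicate 1 (edgeR adjusted p up to 0.175).

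The 4 lower genes of the list were Bmp4, Id2, Peli1 and Id3. Bmp4, a ligand of the related BMP pathway, fell from 36.5 and 28.4 to 11.5 and 8.12 CPM (log2 fold change -1.72 ± 0.22, edgeR adjusted p = 0.0042). Id2 and Id3 encode inhibitors of basic helix-loop-helix factors and are known BMP targets. Id2 fell from 367 and 208 to 124 and 58.03 CPM (-1.66 ± 0.39) and Id3 from 101 and 79.9 to 42.2 and 44.1 CPM (-1.06 ± 0.15), whereas Id1 stood at 85.04 and 70.7 CPM in vehicle and 76.5 and 88.9 CPM with TGFβ1, where the groups overlapped (edgeR adjusted p = 0.71). Peli1, a ubiquitin ligase, fell by 1.31 ± 0.15 on the log2 scale. The call of Id2 was lost without vehicle replicate 1. Without TGFβ1 replicate 1 more genes of the list were lower, as were more of all genes tested.

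**Figure D3:**
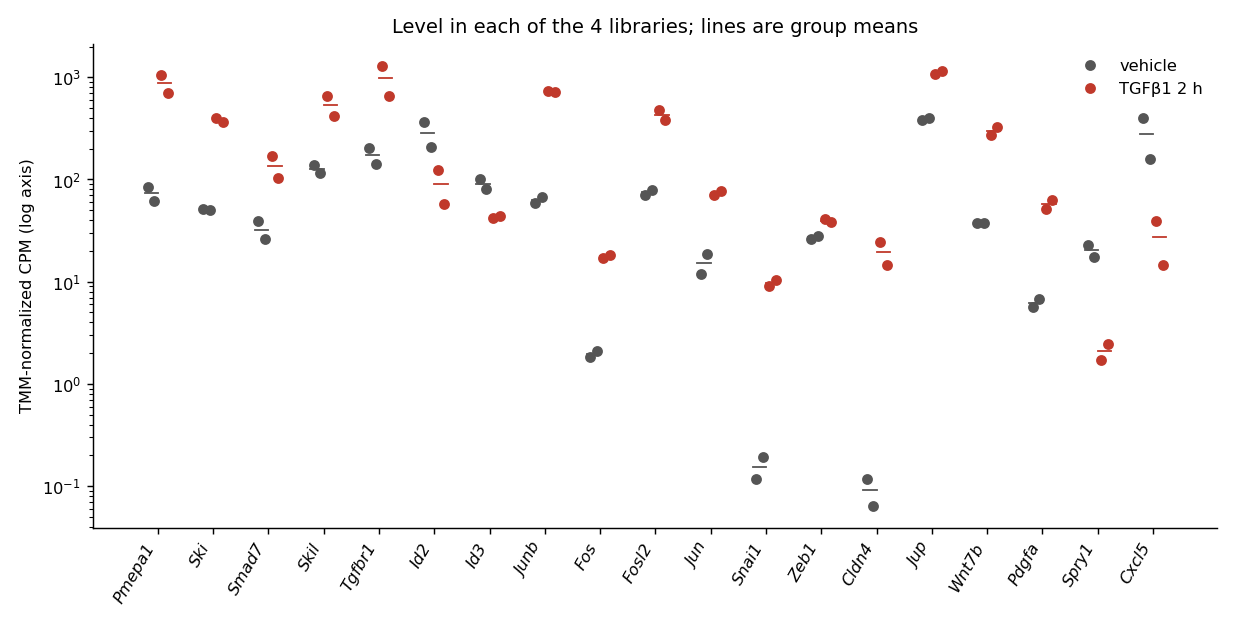
Points give the TMM-normalized CPM of 19 genes in each of the 2 vehicle libraries (grey) and 2 TGFβ1 2 h libraries (red) on a log axis, with replicate 1 to the left, and lines give group means. Red points lie above grey points except for Id2, Id3, Spry1 and Cxcl5, where they lie below, and the groups do not overlap in any gene shown.

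AP-1 is a dimer of JUN, FOS, ATF and MAF family proteins. Of its 13 tested genes, 8 rose and none fell, with a median log2 fold change of 1.81. Junb rose from 59.3 and 67.7 to 736 and 713 CPM (log2 fold change 3.51 ± 0.14, edgeR adjusted p = 0.000109) and Fos from 1.83 and 2.10 to 17.2 and 18.1 CPM (3.16 ± 0.17). Fosl2 went from 70.8 and 78.9 to 482 and 382 CPM, Atf3 from 9.66 and 12.4 to 51.3 and 65.8 CPM, and Jun from 11.8 and 18.5 to 70.3 and 76.8 CPM. Both TGFβ1 libraries lay well above both vehicle libraries for all 5 genes, although the vehicle libraries differed from each other for Jun. Jdp2 (2.09), Jund (0.88) and Mafg (0.49) completed the higher members. Fosl1 stood at 2.30 and 4.27 CPM in vehicle and 6.93 and 7.07 CPM with TGFβ1 and missed the threshold (edgeR adjusted p = 0.055), although 6 of the alternative fits called it.

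Immediate-early genes outside AP-1 are induced within minutes to hours of many stimuli. Of 29 tested 12 rose (41.4%, against 9.91% of all genes tested) and 2 fell (6.9%, against 5.25%). Rhob, a small GTPase, rose from 27.4 and 25.9 to 276 and 199 CPM, and the growth arrest and stress genes Gadd45a and Gadd45g from 11.7 and 10.01 to 97.5 and 89.2 CPM and from 5.06 and 9.56 to 37.3 and 53.7 CPM. Egr2, a zinc finger activator, rose from 1.001 and 0.574 to 6.48 and 5.40 CPM (edgeR adjusted p = 0.0025). Gadd45b (2.52), Sgk1 (2.15), Klf10 (1.87), Zfp36l2 (1.86), Trib1 (1.24), Ier2 (1.14) and Csrnp1 (0.95) were the other higher members beside Arc. In contrast Btg2, an antiproliferative gene, fell from 90.4 and 157 to 22.8 and 39.1 CPM (-1.997 ± 0.33), and the kinase gene Plk2 from 149.9 and 120.0 to 60.3 and 46.2 CPM (-1.34 ± 0.17).

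Promoters of 6 genes that rose or fell are shown because they hold motifs of AP-1 or of other factors that act on immediate-early genes. Each sequence is the 250 bases before an annotated start (RefSeq, GRCm38.p6), read 5′ to 3′ on the strand of the gene, and capitals mark the motifs TGANTCA (AP-1), TGACGTCA (the cAMP response element) and the CArG box of serum response factor. The promoters of Cldn4 and Tnfaip6 hold TGANTCA, that of Lmcd1 holds TGACGTCA and a CArG box, and those of Btg2, Plk2 and Errfi1, an inhibitor of the EGF receptor, hold TGACGTCA. Errfi1 has another annotated start, at the 5′ side, whose promoter holds none of these motifs.
Cldn4 (chr5:134946935-134947184, minus strand): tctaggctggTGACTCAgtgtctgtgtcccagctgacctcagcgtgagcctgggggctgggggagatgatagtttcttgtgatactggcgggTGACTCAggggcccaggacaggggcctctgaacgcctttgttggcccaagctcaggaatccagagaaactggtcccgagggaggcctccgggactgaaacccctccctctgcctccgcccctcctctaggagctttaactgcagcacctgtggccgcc
Tnfaip6 (chr2:52037863-52038112, plus strand): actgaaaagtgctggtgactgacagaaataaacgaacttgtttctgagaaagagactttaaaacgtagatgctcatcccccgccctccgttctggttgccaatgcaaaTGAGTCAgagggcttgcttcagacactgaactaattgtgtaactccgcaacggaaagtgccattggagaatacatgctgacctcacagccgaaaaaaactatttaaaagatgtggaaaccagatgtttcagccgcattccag
Lmcd1 (chr6:112273508-112273757, plus strand): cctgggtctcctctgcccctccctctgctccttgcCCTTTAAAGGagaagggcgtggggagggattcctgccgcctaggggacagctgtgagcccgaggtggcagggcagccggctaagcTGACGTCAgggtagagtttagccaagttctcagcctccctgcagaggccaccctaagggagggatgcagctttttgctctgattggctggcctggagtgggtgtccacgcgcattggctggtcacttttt
Btg2 (chr1:134079156-134079405, minus strand): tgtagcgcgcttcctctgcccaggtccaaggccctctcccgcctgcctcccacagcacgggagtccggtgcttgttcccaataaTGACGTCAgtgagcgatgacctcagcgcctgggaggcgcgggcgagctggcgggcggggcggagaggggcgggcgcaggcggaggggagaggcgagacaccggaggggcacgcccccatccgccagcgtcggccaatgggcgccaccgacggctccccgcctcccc
Plk2 (chr13:110394794-110395043, plus strand): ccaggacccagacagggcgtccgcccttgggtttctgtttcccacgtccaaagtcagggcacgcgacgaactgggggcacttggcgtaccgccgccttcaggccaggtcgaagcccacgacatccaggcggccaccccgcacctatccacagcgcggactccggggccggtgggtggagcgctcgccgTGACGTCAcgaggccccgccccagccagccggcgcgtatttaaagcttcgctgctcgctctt
Errfi1 (chr4:150854820-150855069, plus strand): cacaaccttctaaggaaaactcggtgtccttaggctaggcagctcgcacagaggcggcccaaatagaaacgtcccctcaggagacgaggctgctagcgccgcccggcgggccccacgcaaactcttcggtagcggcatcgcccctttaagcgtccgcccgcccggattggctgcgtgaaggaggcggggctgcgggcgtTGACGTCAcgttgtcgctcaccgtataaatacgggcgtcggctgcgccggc
The first 3 genes rose at 2 h and the last 3 fell, so that TGACGTCA is found in promoters of both directions. Promoters of 12 named genes hold TGANTCA. Among these genes Bag3, Cldn4, Eif2ak3, Il11, Irgm1, Sema4d, Smarcb1, Tnfaip6 and Zeb2 rose, Ifit3b fell, and Cd68 and Lif were not called. On either strand TGANTCA is in 6.75% of the 32851 promoters of the table, TGACGTCA in 1.55% and the CArG box in 1.47%. Among the promoters of the tested genes, 80.5% of which have a promoter in the table, the shares are 4.66%, 2.66% and 1.2%, and a match is no evidence of a bound site. Shares among called genes are not given and were not compared, since only 78.3% of the higher genes have a promoter in the table.

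Other transcription factor genes moved in both directions, with a median log2 fold change of 0.12. Of 42 tested 14 were higher (33.3%, against 9.91% of all genes tested) and 4 lower (9.52%, against 5.25%). Arid5a, which encodes an ARID domain protein, rose from 3.47 and 3.57 to 87.7 and 68.5 CPM (log2 fold change 4.47 ± 0.17, edgeR adjusted p = 0.000109), and Runx1 from 17.7 and 15.3 to 186 and 143 CPM (3.32 ± 0.20). Ets1 rose from 154 and 154 to 731 and 508 CPM, Foxq1 from 21.6 and 15.7 to 90.1 and 62.6 CPM, and Bhlhe40, a repressor that also acts on the clock, from 73.3 and 96.1 to 320.4 and 329 CPM. Sox11 (1.91), Cebpb (1.70), Sox4 (1.49), Runx2 (1.48), Klf7 (1.48), Klf13 (1.39), Rara (0.76), Elk3 (0.74) and Elk4 (0.37) made up the rest on the log2 scale. The lower genes were Hes1 (-1.39 ± 0.37), Klf3 (-1.05 ± 0.11), Arid5b (-0.98 ± 0.11) and Gata6 (-0.71 ± 0.15), and the calls of Hes1 and Gata6 were lost without either vehicle library, with edgeR adjusted p up to 0.174 and 0.147, which left 2 lower members each time.

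Of the EMT transcription factors, all 10 tested had higher mean levels with TGFβ1 and 5 rose. After Snai1, the largest change was in Hmga2, a chromatin protein, from 39.7 and 27.3 to 125 and 72.1 CPM. Zeb2 stood at 13.5 and 12.9 CPM in vehicle and 23.1 and 20.4 CPM with TGFβ1 (0.72 ± 0.12), and Zeb1 at 25.97 and 28.3 and 41.3 and 38.000 CPM (0.55 ± 0.11), so both zinc finger repressors rose by well under 2-fold. Tcf3 rose by 0.52 ± 0.12 on the log2 scale and Snai2, at 1.59 and 2.74 CPM in vehicle and 3.29 and 3.08 CPM with TGFβ1, did not pass the test (edgeR adjusted p = 0.286). Snai1 was called in every fit that tested it, whereas the list had only 2 higher members without vehicle replicate 1 and 1 without vehicle replicate 2, when Hmga2, Zeb1, Zeb2 and Tcf3 lost the call (edgeR adjusted p up to 0.0954, 0.146, 0.0772 and 0.169).

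Of 35 epithelial and junction genes 9 rose (25.7%, against 9.91% of all genes tested) and 4 fell (11.4%, against 5.25%), with a median of 0.29. Beside Cldn4, the genes of the desmosomal proteins Jup (plakoglobin) and Pkp1 (plakophilin 1) rose, Jup from 379 and 399 to 1085 and 1140.2 CPM (log2 fold change 1.52 ± 0.10, edgeR adjusted p = 0.000464) and Pkp1 from 7.48 and 12.2 to 26.02 and 46.5 CPM (1.89 ± 0.35). Lad1, an anchoring filament protein, rose from 154 and 178 to 331 and 417 CPM, and the keratin gene Krt8 from 1133 and 1016 to 1683 and 1765 CPM. Cdh1, encoding E-cadherin, stood at 421 and 363 CPM in vehicle and 609 and 452 CPM with TGFβ1, higher in both TGFβ1 libraries without passing the test (edgeR adjusted p = 0.159). Grhl1 (1.08), Ctnnd1 (0.73), Pkp2 (0.53) and Lsr (0.48) also rose on the log2 scale.

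The 4 lower epithelial genes act in cell polarity and tight junctions. Crb3, the Crumbs polarity protein, fell from 23.1 and 22.8 to 10.8 and 9.54 CPM (log2 fold change -1.17 ± 0.16, edgeR adjusted p = 0.00459). Pard6b, Cgn (cingulin) and Llgl2 fell by 0.65 ± 0.15, 0.56 ± 0.10 and 0.46 ± 0.10 on the log2 scale. Only Crb3 kept its call in every fit, since Pard6b, Cgn and Llgl2 lost it without either vehicle library (edgeR adjusted p up to 0.19, 0.0846 and 0.151), which left 1 lower member of the list in each case. Of the higher members, Pkp1 lost its call without vehicle replicate 1, Krt8 without vehicle replicate 2 and Grhl1 without either, with edgeR adjusted p up to 0.0872, 0.066 and 0.15. The higher members numbered 4 without vehicle replicate 1 and 5 without vehicle replicate 2.

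**Figure D4:**
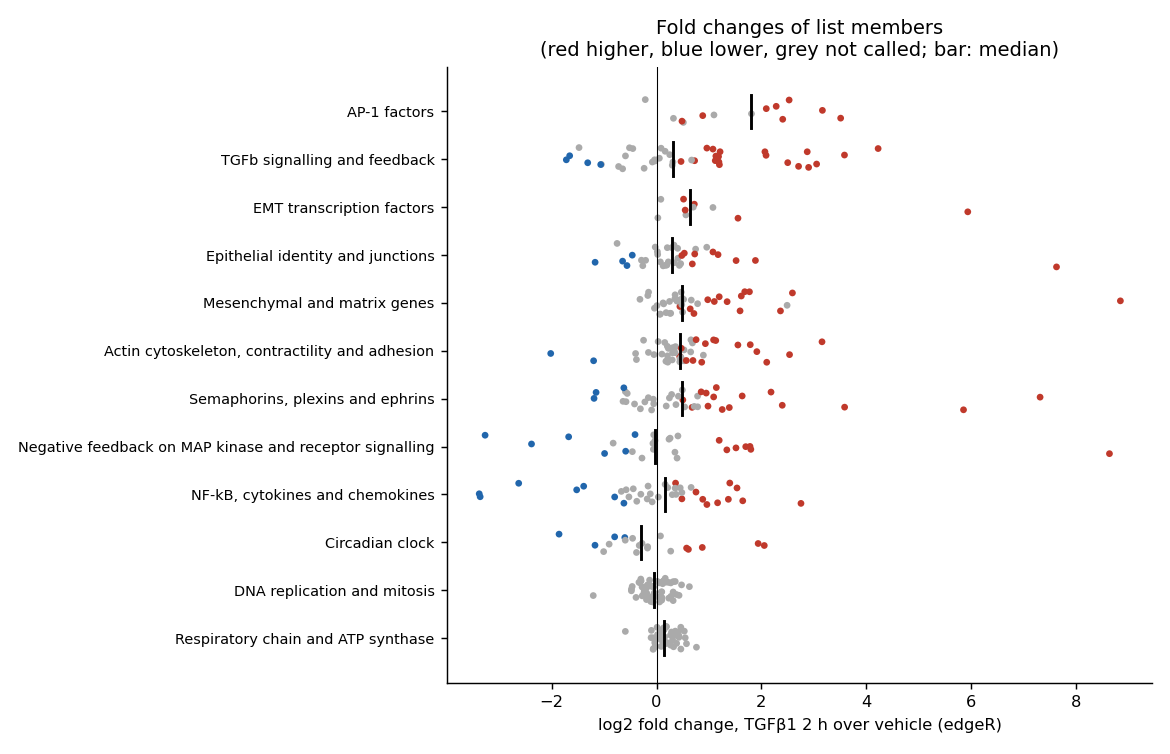
Each point is a tested member of 1 of 12 lists, placed by its log2 fold change at 2 h over vehicle (red called higher, blue called lower, grey not called), and the black bar is the median of the list. The AP-1 bar lies at 1.81, the epithelial bar at 0.29 and the DNA replication bar at -0.05, and MAP kinase feedback and cytokine genes spread to both sides.

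Mesenchymal and matrix genes rose or did not pass the test, with a median of 0.48. Of 39 tested 14 were higher (35.9%, against 9.91% of all genes tested) and none lower (against 5.25%). Collagen genes were at low levels: Col1a1 rose from 0.648 and 1.27 to 4.76 and 6.81 CPM (log2 fold change 2.59 ± 0.35, edgeR adjusted p = 0.00492), Col5a1 from 3.77 and 8.67 to 25.8 and 38.000 CPM and Col7a1 from 4.95 and 5.16 to 11.5 and 23.1 CPM. Gpc1, a heparan sulfate proteoglycan, rose from 57.6 and 71.8 to 187 and 228 CPM, and the laminin chains Lamb3 and Lamb1 (1.20) rose together with Thbs1 (1.62), Hspg2 (1.10), Plod2 (0.71), Serpinh1 (0.64) and Lama5 (0.45). Fn1, encoding fibronectin, went from 99.7 and 79.6 to 170.2 and 183 CPM (0.98 ± 0.18). Vim, encoding vimentin, was at 1821 and 1986 CPM in vehicle and 2350.1 and 3024 CPM with TGFβ1, higher in both but not past the test (edgeR adjusted p = 0.0726), and the hyaluronan synthase gene Has2 had 1 and 0 counts in vehicle and 4 and 4 with TGFβ1 (edgeR adjusted p = 0.112). Without vehicle replicate 2 fewer members were higher, as were fewer of all genes tested. The call of Col5a1 was lost without vehicle replicate 1, that of Col7a1 without either vehicle library and that of Fn1 without vehicle replicate 2. Fibroblast markers summed to 5.24 and 3.57 CPM in vehicle and 9.82 and 9.13 CPM with TGFβ1, mostly Col1a1 and Pdgfra, with Thy1 and Postn at 0, and their part in the result was not tested.

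Proteases and their inhibitors included, of 25 genes, 11 higher (44%, against 9.91% of all genes tested) and 2 lower (8%, against 5.25%). Timp3, an inhibitor of metalloproteinases, rose from 0.766 and 0.446 to 11.04 and 9.39 CPM (log2 fold change 4.05 ± 0.25, edgeR adjusted p = 0.000326), and Timp1 by 0.75. Adam8 rose from 6.54 and 6.57 to 30.6 and 39.8 CPM and Adamts6 from 15.3 and 17.3 to 52.7 and 45.8 CPM. In the plasminogen system Plau, encoding urokinase, went from 3.95 and 6.63 to 11.1 and 15.9 CPM and its receptor gene Plaur rose by 0.72 on the log2 scale. Adamts15 fell from 15.5 and 15.3 to 3.39 and 4.24 CPM (-2.01 ± 0.24) and Adamts1 from 114 and 119 to 67.9 and 48.7 CPM (-1.002 ± 0.17), so that members of this family moved in opposite directions. The call of Plau was lost without vehicle replicate 1 or TGFβ1 replicate 2 and that of Adamts1 without either vehicle library. Fewer members were called in each direction without vehicle replicate 1, as were fewer of all genes tested. More members were lower without TGFβ1 replicate 1, as were more of all genes tested.

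Genes of the actin cytoskeleton and adhesion rose in 15 of 48 cases (31.2%, against 9.91% of all genes tested). They fell in 2 (4.17%, against 5.25%), and their median was 0.44. Integrin genes were among the higher ones. Itgb6, whose product activates latent TGFβ, rose from 60.01 and 45.3 to 348 and 263 CPM (log2 fold change 2.54 ± 0.19, edgeR adjusted p = 0.00063). Itgb5 rose from 104 and 82.9 to 339 and 307 CPM. Itga2, a collagen receptor subunit, rose from 19.9 and 17.9 to 74.6 and 67.98 CPM. Pdlim7, which binds actin filaments, rose from 39.9 and 38.6 to 142 and 195 CPM. Zyx (1.55), Arhgef2 (1.13), Actn1 (1.09), Actn4 (0.93), Itga6 (0.86), Itgb4 (0.75), Itgb3 (0.57) and Pxn (0.47) were also higher on the log2 scale, beside Rhob and Myh9. Rhob thus rose while Rnd3 fell, and Cdc42ep3 fell by 1.20 ± 0.26, a call lost without either vehicle library (edgeR adjusted p up to 0.145).

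Targets of YAP and TEAD, the effectors of the Hippo pathway, rose in 9 of 20 cases and none fell. Ctgf, a matricellular growth factor, went from 27.03 and 14.7 to 207 and 143 CPM (log2 fold change 3.06 ± 0.32, edgeR adjusted p = 0.00186) and its relative Cyr61 from 48.8 and 40.2 to 125 and 117 CPM (1.44 ± 0.13). Foxf2 rose from 18.8 and 17.4 to 108 and 87.2 CPM and the kinase gene Nuak2 from 24.1 and 26.4 to 106 and 76.7 CPM. Both TGFβ1 libraries were above both vehicle libraries in all 4 genes. Gadd45a, F3 (0.71), Amotl1 (1.01), Ajuba (0.81) and Wwc1 (0.41) were the remaining higher members, and Ctgf is also known as a direct SMAD target.

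Among growth factor ligands and receptors 16 of 48 genes were higher (33.3%, against 9.91% of all genes tested) and 7 lower (14.6%, against 5.25%). Pdgfa and Pdgfb, the chains of platelet-derived growth factor, rose from 5.59 and 6.76 to 51.5 and 63.4 CPM and from 49.6 and 52.1 to 266 and 309 CPM, with log2 fold changes of 3.22 ± 0.18 and 2.50 ± 0.12. Wnt7b rose from 37.2 and 37.3 to 273 and 329.6 CPM (edgeR adjusted p = 0.000118) and Wnt7a from 0.589 and 1.40 to 3.39 and 5.70 CPM. Jag1, a Notch ligand, rose from 63.2 and 60.2 to 426 and 314 CPM (2.58 ± 0.17) and Jag2 by 1.56. Of the Notch receptors Notch2 rose by 1.27 and Notch1 fell by 1.03 ± 0.10 on the log2 scale. Egfr rose by 1.23, Igf1r by 0.94, Fzd2 by 1.54 and Vegfa by 0.74.

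The lower genes of this list included both insulin receptor substrates. Irs1 fell from 101 and 102 to 33.6 and 23.2 CPM (log2 fold change -1.84 ± 0.19, edgeR adjusted p = 0.00173) and Irs2 from 35.6 and 33.2 to 13.3 and 20.2 CPM (-1.04 ± 0.21). Nrg1, a ligand of ERBB receptors, fell from 106 and 125 to 44.3 and 52.8 CPM, and Kitl, the ligand of the KIT receptor, from 299.8 and 255 to 156 and 97.8 CPM. Igfbp5 was at 3.30 and 2.87 CPM in vehicle and 1.27 and 0.505 CPM with TGFβ1, and Met fell by 0.52 ± 0.12. All cells were without insulin at the time. The calls of Wnt7a (without vehicle replicate 1), and of Irs2, Kitl and Igfbp5 (without either vehicle library) were lost, with edgeR adjusted p up to 0.0854, 0.101, 0.117 and 0.194, and the lower members then numbered 3.

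Inhibitors of MAP kinase and receptor signalling were split. Of 25 tested 7 were higher (28%, against 9.91% of all genes tested) and 6 lower (24%, against 5.25%). Of the 7 higher members 6 were dual-specificity phosphatases. Beside Dusp2, Dusp10 rose from 31.2 and 31.7 to 123 and 92.9 CPM (log2 fold change 1.78 ± 0.15, edgeR adjusted p = 0.00094), Dusp16 from 39.2 and 52.97 to 169 and 131 CPM, Dusp8 from 1.12 and 2.61 to 5.16 and 7.77 CPM, and Dusp5 and Dusp4 by 1.34 and 1.20 on the log2 scale. Spred2 rose from 5.01 and 6.31 to 14.5 and 17.8 CPM. None of the lower members was a dual-specificity phosphatase, and they include Spred3, a relative of the higher member Spred2. Beside Spry1, Errfi1 fell from 31.3 and 27.7 to 11.6 and 6.81 CPM (-1.68 ± 0.25), Rgs2 from 3.47 and 3.44 to 0.557 and 0.757 CPM (-2.38 ± 0.39), Spred3 by 0.99 ± 0.19, Socs3 by 0.59 ± 0.13, and Socs5 had a log2 fold change of -0.41. Without vehicle replicate 1 the list had 4 higher and 2 lower members and without vehicle replicate 2 5 and 3. The calls of Dusp8, Rgs2, Spred3 and Socs3 were among those lost (edgeR adjusted p up to 0.124, 0.056, 0.114 and 0.129).

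Cytokine and NF-kB genes also moved both ways. Of 37 tested 11 were higher (29.7%, against 9.91% of all genes tested) and 7 lower (18.9%, against 5.25%). The chemokine gene Cxcl5 fell from 401 and 157 to 39.6 and 14.6 CPM (log2 fold change -3.36 ± 0.59, edgeR adjusted p = 0.0123), Cxcl1 from 43.1 and 20.1 to 5.92 and 4.29 CPM (-2.63 ± 0.38) and Ccl20 from 7.66 and 5.10 to 0.607 and 0.606 CPM (-3.38 ± 0.40). Cxcl5 differed over 2-fold between replicates of each group, and replicate 1 was the higher in both. Its edgeR adjusted p was 0.0506 when the 4 libraries were fitted alone. Ccl7, a monocyte chemokine, rose from 3.36 and 4.14 to 11.8 and 9.94 CPM and Cxcl16 from 13.3 and 12.7 to 33.6 and 33.5 CPM. Nfkbiz, an atypical nuclear IκB protein, fell from 115 and 110.1 to 39.5 and 38.96 CPM (-1.52 ± 0.10), whereas the NF-kB subunit genes Nfkb1 and Rela rose by 0.48 and 0.36, and the feedback inhibitor gene Tnfaip3 by 0.96. Tnfrsf12a, the receptor of TWEAK, rose from 186 and 136 to 497 and 353 CPM, Il34 from 1.71 and 1.53 to 5.42 and 4.74 CPM, and Il11, with 2 and 1 counts in vehicle, had a ratio of 7.16-fold (2.19 to 36.9).

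In this list the higher members numbered 4 without vehicle replicate 1 and 5 without vehicle replicate 2, and the lower members 4 and 5. Il11 lost its call without vehicle replicate 1, vehicle replicate 2 or TGFβ1 replicate 2, Ccl7 without vehicle replicate 1, and Tnfsf9 (-1.39) without vehicle replicate 1, vehicle replicate 2 or TGFβ1 replicate 1 (edgeR adjusted p up to 0.0998, 0.0626 and 0.185). Of 26 interferon-stimulated genes 1 was higher (3.85%) and 2 were lower (7.69%), against 9.91% and 5.25% of all genes tested: Irgm1 rose by 0.73 ± 0.10 on the log2 scale, Mx2 stood at 5.36 and 2.996 CPM in vehicle and 0.861 and 0.858 CPM with TGFβ1, and Parp14 at 10.01 and 9.56 and 5.16 and 5.25 CPM. Mx2 shares sequence with its neighbour Mx1, and its call was lost without vehicle replicate 1. The call of Parp14 was lost without either vehicle library. More of these interferon-stimulated genes were lower without TGFβ1 replicate 1, as were more of all genes tested.

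Cell cycle and apoptosis genes changed in 9 of 45 cases, 3 higher (6.67%, against 9.91% of all genes tested) and 6 lower (13.3%, against 5.25%). Bmf, a proapoptotic BH3-only gene, rose from 329 and 288 to 1015 and 908 CPM (log2 fold change 1.64 ± 0.12, edgeR adjusted p = 0.000624), while another BH3-only gene, Bbc3, fell from 17.9 and 16.5 to 6.53 and 7.32 CPM (-1.31 ± 0.19). Cdkn2b, encoding the cyclin-dependent kinase inhibitor p15, rose from 59.5 and 42.01 to 113 and 89.98 CPM (0.999 ± 0.19), and Cdkn1a, encoding p21, was at 64.2 and 68.5 CPM in vehicle and 104 and 85.5 CPM with TGFβ1 without passing the test (edgeR adjusted p = 0.0682). E2f2 fell from 8.95 and 11.98 to 1.52 and 2.47 CPM and Ccne2, encoding cyclin E2, from 5.83 and 8.92 to 2.63 and 3.03 CPM. Cdc25a, a phosphatase that activates cyclin-dependent kinases, rose by 0.66 ± 0.12, and Myc stood at 12.5 and 21.04 CPM in vehicle and 16.2 and 18.5 CPM with TGFβ1 (edgeR adjusted p = 0.907). Without either vehicle library the lower members numbered 3 (replicate 1) or 2 (replicate 2), and Cdkn2b and Ccne2 lost the call without vehicle replicate 2 (edgeR adjusted p of 0.0732 and 0.125), and Cdc25a, Ccnd2 and Mxd1 without either (up to 0.108, 0.185 and 0.105). Without TGFβ1 replicate 1 more members were lower, as were more of all genes tested. Without TGFβ1 replicate 2 more members were higher, although fewer of all genes tested were.

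None of the 57 genes of DNA replication and mitosis was called at 2 h by edgeR, and their median log2 fold change was -0.05. Their levels differed between replicates of each group. Mki67, the proliferation marker Ki-67, stood at 209.9 and 499 CPM in the vehicle libraries and 195 and 492 CPM in the TGFβ1 libraries, and the topoisomerase gene Top2a at 197 and 415 and 206 and 384 CPM. Summed over the list, replicate 1 held 2908 CPM in vehicle and 2958 CPM with TGFβ1, and replicate 2 held 5547 and 5308 CPM. Replicate 2 was thus the higher in both groups, and within each replicate number the treated and control values were close.

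Of 20 clock genes 5 rose (25%, against 9.91% of all genes tested) and 4 fell (20%, against 5.25%). Nfil3, a repressor of the D-box, rose from 16.5 and 18.1 to 81.9 and 61.9 CPM (log2 fold change 2.06 ± 0.17, edgeR adjusted p = 0.000823), whereas activators that bind the same element fell, Dbp from 14.3 and 12.5 to 3.90 and 3.48 CPM (-1.86 ± 0.22) and Tef from 239.8 and 194 to 148 and 101 CPM (-0.80 ± 0.20). Cry2, a repressor of the core loop, fell from 26.6 and 29.4 to 13.3 and 11.6 CPM, and Per3 by 0.61 ± 0.12. Clock, Csnk1d and Csnk1e rose by 0.57 ± 0.10, 0.61 ± 0.12 and 0.87 ± 0.10 on the log2 scale. Clock, Csnk1d, Tef and Per3 lost their calls without either vehicle library (edgeR adjusted p up to 0.0917, 0.129, 0.199 and 0.115), which left 3 higher and 2 lower members.

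In glucose metabolism 3 of 48 genes rose (6.25%) and 4 fell (8.33%), near the shares of all genes tested (9.91% and 5.25%). Hk2, encoding hexokinase 2, rose from 18.5 and 20.1 to 184 and 143 CPM (log2 fold change 3.08 ± 0.16, edgeR adjusted p = 0.0002), Pfkfb3, which makes the activator of phosphofructokinase, from 9.13 and 10.6 to 39.7 and 45.2 CPM, and the glucose transporter gene Slc2a1 from 49.9 and 47.9 to 75.7 and 78.1 CPM. Txnip and its relative Arrdc4, which limit glucose uptake, fell from 81.9 and 101 to 20.7 and 27.4 CPM and from 13.7 and 11.1 to 4.61 and 3.33 CPM. With Ppp1r3c, Pfkfb2 (-0.53) completed the lower members. Slc2a1 lost its call without vehicle replicate 2 and Pfkfb2 without vehicle replicate 1, vehicle replicate 2 or TGFβ1 replicate 2. More members were lower without TGFβ1 replicate 1, as were more of all genes tested.

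In lipid synthesis, Srebf1, the regulator of fatty acid synthesis genes, rose from 249 and 237 to 518 and 432 CPM (log2 fold change 0.96 ± 0.12, edgeR adjusted p = 0.00336) and Srebf2, its counterpart for cholesterol, from 292 and 335 to 407 and 475 CPM, an edgeR adjusted p of 0.0495 that no longer passed without either vehicle library (up to 0.255). Of the 33 genes of the list these were the only calls (6.06% higher, against 9.91% of all genes tested). Among 53 ribosome biogenesis genes Utp4 rose (0.59 ± 0.09), and among 64 ribosomal protein genes Rplp1 rose (0.94 ± 0.15) and Rpl39 fell (-0.75 ± 0.13), genes that have many processed copies in the genome and whose counts are uncertain for that reason. The calls of Utp4 and Rplp1 were lost without either vehicle library and that of Rpl39 without vehicle replicate 1 (edgeR adjusted p up to 0.0817, 0.061 and 0.0822). No respiratory chain gene was called, with a median log2 fold change of 0.15, but 12 of 53 were called higher without TGFβ1 replicate 1, a fit in which 11.3% of all genes were called higher, and 10 of 64 ribosomal protein genes and 5 of 53 ribosome biogenesis genes were then higher, near that share.

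In stress responses, Ddit4, an inhibitor of mTORC1, rose from 62.2 and 94.98 to 320.3 and 327 CPM (log2 fold change 2.04 ± 0.21, edgeR adjusted p = 0.00179) and Trib3, an inhibitor of AKT, from 8.66 and 10.5 to 28.4 and 26.7 CPM, whereas Sesn2, another inhibitor of mTORC1, fell from 43.8 and 51.1 to 17.1 and 21.5 CPM (-1.30 ± 0.16). These were among 4 higher (8.16%) and 2 lower (4.08%) of 49 genes of the unfolded protein and amino acid responses, shares under those of all genes tested (9.91% and 5.25%), of which 2 and 1 were left without vehicle replicate 1. Bag3, a cochaperone, rose from 34.5 and 43.5 to 138 and 124 CPM (1.74 ± 0.14). Nfe2l2, the master regulator of antioxidant genes, fell from 289.5 and 267 to 144 and 126 CPM (-1.04 ± 0.11). The subunits of glutamate-cysteine ligase, which makes glutathione, moved in opposite directions: Gclc, the catalytic subunit, fell from 554 and 470.3 to 278 and 272 CPM and Gclm, the modifier subunit, rose from 176 and 179 to 285 and 303 CPM. Of 37 heat shock and antioxidant genes 5 rose (13.5%) and 4 fell (10.8%), against 9.91% and 5.25% of all genes tested. Dnajb4 fell by 1.13 ± 0.17, and the higher members numbered 2 without either vehicle library.

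Among 39 genes of guidance molecules 15 were higher (38.5%, against 9.91% of all genes tested) and 3 lower (7.69%, against 5.25%). Their median log2 fold change was 0.49. Sema4d rose from 3.36 and 4.78 to 20.9 and 22.003 CPM (log2 fold change 2.40 ± 0.20, edgeR adjusted p = 0.000973) and the semaphorin coreceptor gene Nrp2 from 50.3 and 61.6 to 257 and 251 CPM (2.18 ± 0.13). Sema4f was at 0 in vehicle and had 20 and 21 counts with TGFβ1, and the receptor gene Ephb2 went from 3 and 1 to 29 and 32 counts, a ratio of 12.6-fold (4.67 to 47.7). Efna2 (1.63), Sema4c (1.39), Unc5b (1.25), Plxnd1 (1.14), Efnb1 (1.09), Efna4 (0.98), Plxna1 (0.95), Plxnb1 (0.85), Ntn4 (0.68) and Sema3f (0.50) rose by less on the log2 scale, beside Efna3. The lower genes were Sema3c, from 349 and 306 to 179.6 and 115 CPM, Epha7, from 55.7 and 54.8 to 26.4 and 22.003 CPM, and Epha2 (-0.62 ± 0.14). Sema3c lost its call without vehicle replicate 1 and Epha2 without either vehicle library. More guidance genes were lower without TGFβ1 replicate 1, as were more of all genes tested.

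Among 46 chromatin regulators 7 rose (15.2%) and 2 fell (4.35%), against 9.91% and 5.25% of all genes tested. Dnmt3a, a de novo DNA methyltransferase, rose from 31.6 and 38.8 to 120.3 and 107 CPM (log2 fold change 1.69 ± 0.13, edgeR adjusted p = 0.000734), and Kdm6b, a demethylase of histone H3 lysine 27, from 10.9 and 13.1 to 24.04 and 36.7 CPM (1.34 ± 0.24). Kdm7a fell from 112 and 114 to 61.6 and 51.3 CPM (-1.01 ± 0.13) and Kdm2b by 0.58 ± 0.14. Kansl3, a subunit of a histone acetyltransferase complex, rose by 1.19 ± 0.10, and Kdm1a (0.59), Smarcb1 (0.50), Smarca4 (0.42) and Arid1b (0.39) by less than 1 log2 unit. Without either vehicle library 2 members stayed higher and 1 lower, and Kdm6b, Kdm1a, Smarcb1 and Kdm2b were among the calls lost (edgeR adjusted p up to 0.0894, 0.0792, 0.184 and 0.202).

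Several of these genes are neighbours in the genome. The study took 3 groups of neighbours as examples of joint regulation, which is why they were examined. Their change is therefore no independent evidence. Neurl3 and Gnai3 are not members of these groups but neighbours that the study used as controls. The study describes Neurl3 as repressed by TGFβ and Gnai3 as not regulated. On chromosome 1 of mm9 (NCBIM37), Arid5a (36364578 to 36380874) and Kansl3 both rose. Neurl3 (36321447 to 36330270) stood at 30.2 and 18.3 CPM in vehicle and 18.6 and 10.2 CPM with TGFβ1. The groups overlapped (edgeR adjusted p = 0.207), although Neurl3 was lower with TGFβ1 at both replicate numbers. Also on chromosome 1, Lad1 (137715175 to 137729918), Tnnt2 (137737452 to 137748837) and Pkp1 (137767972 to 137815784) all rose, and Tnnt2, a troponin gene of heart muscle, went from 3.06 and 3.57 to 12.9 and 19.2 CPM (2.27 ± 0.26). On chromosome 3, Amigo1 (107989253 to 107995204), an adhesion protein gene, rose from 6.65 and 7.90 to 67.5 and 69.7 CPM (3.24 ± 0.13, edgeR adjusted p = 0.000109). Its neighbours Cyb561d1 (107998605 to 108004130) and Atxn7l2 (108005140 to 108013852) rose by 1.10 ± 0.14 and 1.02 ± 0.17, whereas Gnai3 (107910198 to 107949064) stood at 319 and 298 CPM in vehicle and 330.2 and 273 CPM with TGFβ1 (edgeR adjusted p = 0.896). The call of Atxn7l2 was lost without either vehicle library (edgeR adjusted p up to 0.0709).

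The length of the called genes is given as a description, with no test. A gene span could be read from the annotation of the same build (NCBIM37) for 9960 of the 11080 genes tested (89.9%), and its median was 23.6 kb. Higher genes had a median span of 29.7 kb and lower genes of 27.4 kb, and the 63 genes that rose over 8-fold, 60 of them with a span, had 21.8 kb. The quartiles were wide in every group, from 10.3 to 54 kb over all genes and from 11.7 to 76.9 kb among higher genes.

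The 12 h libraries were compared with the same vehicle libraries, so the values at both times share their controls and are given side by side without a test, and the 12 h cells also spent longer without serum. Some genes that rose at 2 h stood near or below vehicle at 12 h. Hnf4a had a log2 fold change of 1.63 at 2 h and -0.17 at 12 h, with 375 and 438 CPM in the 12 h libraries, Srebf1 had 0.96 and -0.56, Grhl1 1.08 and -0.01, and Gclm 0.73 and -0.56. Genes that fell at 2 h and stood near or above vehicle at 12 h included Txnip (-1.93 and -0.23), Errfi1 (-1.68 and -0.09), Irs2 (-1.04 and 0.12), Nrg1 (-1.25 and -0.29) and Plk2 (-1.34 and 0.72).

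Other genes had larger log2 fold changes at 12 h. Ctgf had 3.06 at 2 h and 6.13 at 12 h, Jag1 2.58 and 4.66, and Fn1 0.98 and 3.84. Has2 had 4 and 4 counts at 2 h and 83.2 and 82.2 CPM at 12 h. Id1, Myc and the cytokine gene Lif, none of them called at 2 h, had log2 fold changes at 12 h of -1.84, 1.91 and 2.11. Lif stood at 12.4 and 14.9 CPM in vehicle and 11.5 and 16.6 CPM at 2 h. Mki67, at 6.93 and 10.8 CPM at 12 h, had -5.32 at 12 h beside -0.04 at 2 h, and Gclc had -3.80 beside -0.90.

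**Figure D5:**
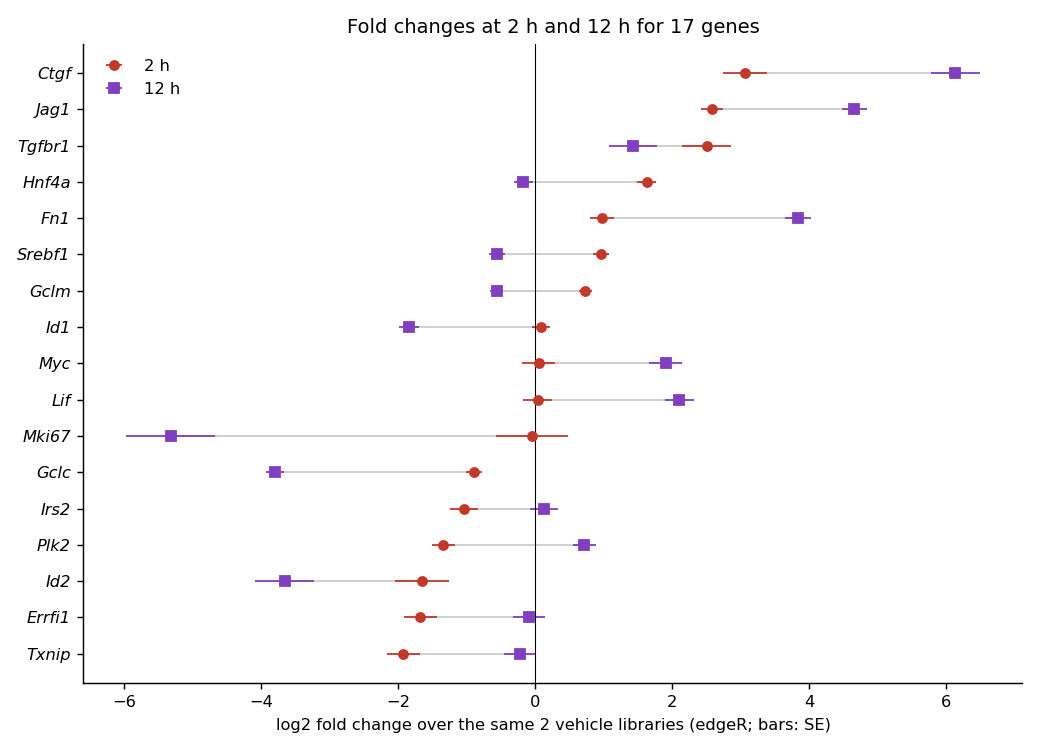
For 17 genes named in the text, the x axis gives the log2 fold change over the same 2 vehicle libraries at 2 h (red circles) and 12 h (purple squares) with its SE as a bar, and a grey line joins both times. Hnf4a, Srebf1, Gclm and Tgfbr1 lie further right at 2 h, Txnip, Errfi1, Irs2 and Plk2 lie further left at 2 h, and Ctgf lies furthest right at 12 h.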

How the data were processed

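NMuMG cells were sequenced as stranded total RNA, 50-base single-end reads, in 2 biological replicates each of vehicle, TGFβ1 for 2 h and TGFβ1 for 12 h. The authors filtered reads, aligned them to mm9 with subjunc keeping unique alignments, removed duplicates with SAMtools 0.1.19, counted exonic reads on the reverse strand per UCSC gene with featureCounts and dropped miRNA genes, and the deposited values are raw counts per gene. The submitters' processing notes name edgeR 3.20.9 and limma 3.34.9.

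Here, genes that reached 2 CPM in 2 or more of the 6 libraries were tested with edgeR 4.0.16 (R 4.3.3), using TMM scaling and quasi-likelihood tests of 2 h against vehicle in 1 fit over the 3 groups, with Benjamini-Hochberg adjustment. An adjusted p below 0.05 is called a change. SE is the fold change divided by the root of F. A floor of 3 counts per library bounds folds against 0, and intervals and floors cover counting error only. Depth ranged from 14705886 to 20578661 counts over the 4 libraries, and 2 replicates per group limit the precision. The scripts were tested on simulated data. Named genes were the 12 largest robust log2 fold changes in each direction among genes that reached 10 counts in each library of the group where they were higher and whose groups did not overlap, the 10 largest CPM differences among called genes in each direction, up to 5 called genes per list and direction with the largest changes (in lists with none, the 2 of highest CPM), and a fixed set of reference genes. Further called members are listed to complete a list, and markers below the filter were named after their values were seen. The members and lists were chosen with earlier results of these data known. Alternatives were other scalings, filters and tools (limma 3.58.1 voom, DESeq2 1.42.0), a replicate block, a fit of the 4 libraries alone and leaving out each library. Promoters came from RefSeq (GRCm38.p6) and gene spans from NCBIM37, the build of mm9. Results of some genes are not reported here.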

Additional observations from a re-analysis of the deposited data

How the results depend on the processing

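All 1680 genes called kept their direction under all 12 alternatives that tested them, and of 192 named genes called 119 kept the call under every alternative. The number of calls differed between alternatives. Scaling to total counts gave 975 lower genes. Fitting the 4 libraries alone gave 893 calls, 644 higher and 249 lower, and 48 named genes lost the call. Leaving out 1 library gave 637 to 2200 calls, 499 to 1250 higher and 138 to 950 lower, and 492 to 909 robust calls, 379 to 535 higher and 113 to 374 lower. The lowest counts came without vehicle replicate 1 and the highest without TGFβ1 replicate 1. The cause was not tested.

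Neither the labels nor the study's methods state whether libraries of the same replicate number form a pair. Deviations from the group means of vehicle and 2 h libraries of the same number correlated at 0.71 across genes, those of vehicle and 12 h at 0.26 and those of 2 h and 12 h at 0.39, and the fit with a replicate block called 3222 genes, 1813 higher and 1409 lower, among them all 1680. The block also called Fosl1, Cdh1, Vim, Cdkn1a and Neurl3, with edgeR adjusted p of 0.00864, 0.0111, 0.00995, 0.012 and 0.00693, and Neurl3 was lower with TGFβ1 at both replicate numbers.

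Uncalled genes near 0 changed sign. Under total counts Id1, Myc and Lif had log2 fold changes of -0.021, -0.060 and -0.071. With 1 library left out at a time Mki67 spanned -0.86 to 0.71, Top2a -0.57 to 0.58, Atp5b -0.030 to 0.27, Cd68 -0.13 to 0.016, Id1 -0.040 to 0.23, Myc -0.28 to 0.48, Lif -0.25 to 0.26 and Gnai3 -0.20 to 0.10.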

Other observations

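Some genes had more counts than exonic bases. Among the 9960 genes with exon lengths there were 848 and 752 such genes in the vehicle libraries and 1199 and 1189 in the TGFβ1 libraries. S100a6, a calcium-binding protein gene of 719 exonic bases, had 96451 and 89803 counts in vehicle and 107044 and 134842 with TGFβ1, and Krt18, of 1400 exonic bases, had 30095 to 49168. The files are described as made after duplicate removal, and how that step bears on these counts was not tested.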
